A study of Homo sapiens with 18 samples.

Results

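The 9 genes described here encode the Janus kinases JAK1, JAK2 and TYK2 and the transcription factors STAT2, STAT3, STAT4, STAT5A, STAT5B and STAT6. They were chosen by gene symbol from the 28395 genes of the RNA-seq tables. The accessible regions within 5 kb of each gene were taken with them, 51 of the 85549 regions that the merged ATAC-seq peaks formed. The study compared 3 derivatives of K562, a human leukemia line of erythroid and megakaryocytic character that carries the BCR-ABL1 fusion kinase. V-K562 carried the empty vector, B-K562 expressed wild-type BASP1 (wtBASP1), a transcriptional corepressor, and G-K562 expressed BASP1-G2A, in which the glycine that is myristoylated was replaced. The lines were stable transfectants kept as pools, and no drug or other treatment separated them. Each line was a single pool, so BASP1 and any other difference between the pools cannot be told apart. RNA-seq and ATAC-seq were each performed on 3 culture replicates per line, 9 libraries per assay.

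JAK kinases sit on the inside of cytokine receptors. When a cytokine brings receptor chains together the kinases phosphorylate each other, the receptor tail and the STAT proteins docked there, and the STATs pair, enter the nucleus and bind DNA. In erythroid cells the erythropoietin receptor signals through JAK2 and STAT5, and in cells with BCR-ABL1 the fusion kinase phosphorylates STAT5 without a cytokine. RNA levels and accessibility do not measure phosphorylation, so the values below are those of the genes and not of the pathway's activity.

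The labels were checked on BASP1 itself. Its normalized count was 5 to 7 in V-K562, rose to between 6189 and 6849 in B-K562, and lay between 8124 and 12538 in G-K562. All 10 K562 marker genes were detected in every library, and their summed level ranged from 76674 to 86158 in V-K562, while B-K562 had 123398 to 128845 and G-K562 had 23679 to 25589. All 10 had fallen in G-K562 relative to V-K562, with a median log2 difference of -1.47, against 33.3% of all genes tested. In B-K562, 8 of 10 were higher and 2 lower, against 38.6% and 37.2% of all genes. The 10 markers of lymphocytes, epithelium, endothelium and liver summed to 1955 to 1987 in B-K562, 1973 to 2427 in V-K562 and 1877 to 2025 in G-K562, of which EPCAM made up the most. The part of these marker shifts in the results below was not tested. The peaks numbered 47111 to 55570 per ATAC-seq library.

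The 5 stretches of reference sequence that follow are shown because the accessibility results and the motif search turn on them, each 300 bp long. The first pair are STAT5A promoters of RefSeq (GRCh38.p14, 250 bp before to 50 bp after a transcript start, plus strand). The upstream one, at chr17:42287189-42287488, was the only one of the members' 17 promoters that held the letters of a STAT site, which are in capitals. No peak of any library overlapped it. The other, at chr17:42288248-42288547, was under a peak in 2 B-K562 libraries and all 3 G-K562 libraries and in no V-K562 library. The rest are windows at the summits of regions in GRCh38, on the plus strand. They are a JAK1 intronic region, region 3, that had peaks in all V-K562 and G-K562 libraries and none in B-K562 (chr1:64956235-64956534, with an interferon-response element core in capitals), the STAT2 downstream region that was lower in B-K562 (chr12:56336651-56336950), and the region between STAT3 and STAT5A that was higher in B-K562 (chr17:42312811-42313110).
STAT5A upstream promoter: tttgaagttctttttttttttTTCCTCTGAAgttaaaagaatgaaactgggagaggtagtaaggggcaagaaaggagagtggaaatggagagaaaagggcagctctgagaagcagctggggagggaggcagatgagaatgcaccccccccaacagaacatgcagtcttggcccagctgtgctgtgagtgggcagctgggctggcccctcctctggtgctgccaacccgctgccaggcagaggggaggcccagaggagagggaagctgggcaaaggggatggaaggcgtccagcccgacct
STAT5A downstream promoter: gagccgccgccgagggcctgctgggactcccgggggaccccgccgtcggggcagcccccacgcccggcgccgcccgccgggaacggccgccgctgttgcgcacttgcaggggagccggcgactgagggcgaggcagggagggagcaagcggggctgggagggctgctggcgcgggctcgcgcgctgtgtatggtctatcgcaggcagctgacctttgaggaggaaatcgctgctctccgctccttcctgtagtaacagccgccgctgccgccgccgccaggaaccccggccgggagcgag
JAK1 region 3: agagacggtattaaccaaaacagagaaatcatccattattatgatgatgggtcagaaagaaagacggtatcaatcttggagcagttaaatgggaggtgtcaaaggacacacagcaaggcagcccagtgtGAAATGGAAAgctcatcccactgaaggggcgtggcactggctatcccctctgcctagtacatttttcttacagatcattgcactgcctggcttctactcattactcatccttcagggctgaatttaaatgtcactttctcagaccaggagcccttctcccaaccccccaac
STAT2 region 2: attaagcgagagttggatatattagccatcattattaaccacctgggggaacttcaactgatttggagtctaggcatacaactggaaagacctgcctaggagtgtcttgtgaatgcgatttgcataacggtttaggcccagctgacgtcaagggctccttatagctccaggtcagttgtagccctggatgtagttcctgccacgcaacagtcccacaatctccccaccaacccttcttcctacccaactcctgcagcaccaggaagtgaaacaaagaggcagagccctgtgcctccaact
STAT3 region 7: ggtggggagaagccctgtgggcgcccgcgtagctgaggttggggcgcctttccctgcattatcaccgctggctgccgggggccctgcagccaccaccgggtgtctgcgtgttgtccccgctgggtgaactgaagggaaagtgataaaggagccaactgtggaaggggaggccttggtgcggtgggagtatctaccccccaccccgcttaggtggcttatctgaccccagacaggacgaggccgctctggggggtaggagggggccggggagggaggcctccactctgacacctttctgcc

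Levels were first compared between the genes per kb of exon, the only scale on which different genes can be set side by side. In V-K562 the 2 STAT5 genes led, with a normalized count per kb of 2662 ± 258 (SD, n = 3) for STAT5A and 2125 ± 120 for STAT5B. STAT3 followed at 1918 ± 31.0, and TYK2, at 1117 ± 47.0, was the highest of the kinases. JAK1 (827 ± 72.3), STAT2 (642 ± 37.2), STAT6 (491 ± 16.8) and JAK2 (350 ± 9.23) came next. No neighbours in that order overlapped between their libraries. STAT4, best known for interleukin-12 signalling in lymphocytes, was at the edge of detection, with normalized counts of 3, 4 and 2 in V-K562, 0, 4 and 5 in B-K562 and 4, 10 and 3 in G-K562. It failed the filter on low values and was not tested, and its libraries overlapped between all lines.

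In the lines that expressed BASP1 more neighbours overlapped, and no change of order was shown. In B-K562 the rank by mean was that of V-K562. The level of STAT5A was 4164 ± 97.9 per kb, while STAT5B, at 1552 ± 32.6, and STAT3, at 1539 ± 46.2, overlapped between their libraries. In G-K562 the level of STAT6 was 937 ± 76.2 per kb, with libraries that overlapped those of JAK1 (1089 ± 75.2) above it and STAT2 (862 ± 92.9) below it. JAK2 was the lowest of the 8 expressed genes in each line.

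**Figure D1:**
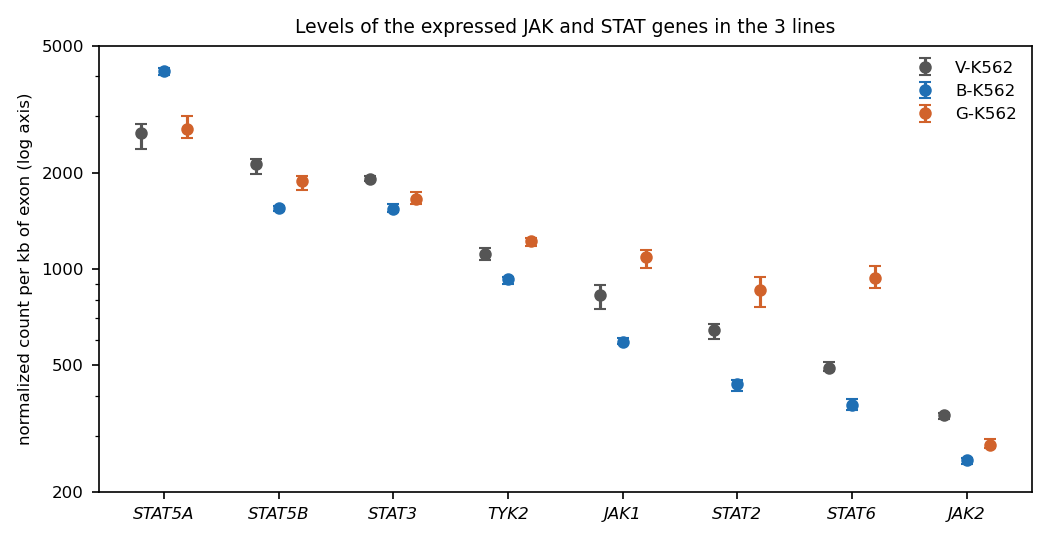
Normalized count per kb of exon on a log axis for the 8 expressed JAK and STAT genes in each line, with the mean of 3 libraries as a point and the lowest and highest library as bars. STAT5A lay highest in each line and reached 4164 per kb in B-K562, and STAT6 moved from 491 in V-K562 to 937 in G-K562.

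The first comparison set B-K562, which expressed wtBASP1, against V-K562. In B-K562 all 3 kinases and 4 of the 5 tested STAT genes were lower than in V-K562, and STAT5A was higher. All 8 tested members passed the test at an adjusted p of at most 0.05, 7 of them lower and 1 higher, and none by 2-fold. Among all 14958 genes tested, 75.8% passed, 37.2% lower and 38.6% higher, so that a single passing gene is common in this comparison. The median log2 difference was -0.42 over the 8 members and 0.01 over all genes. For each of the 8, all B-K562 libraries lay on one side of all V-K562 libraries, as they did for 77.8% of the genes tested. In bulk cultures a change in each cell and a change in the share of cells that hold the RNA cannot be told apart.

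JAK1, the kinase shared by the interferon, interleukin-6 and common gamma chain receptors, had normalized counts of 3878, 4345 and 4618 in V-K562 and 3014, 3142 and 3009 in B-K562. Each B-K562 library was below each V-K562 library, and the log2 difference was -0.48 (SE 0.06, adjusted p = 5.8e-06). JAK2, the kinase of the erythropoietin receptor, fell from 1793, 1877 and 1878 to 1354, 1301 and 1344, by a log2 difference of -0.47 (SE 0.05, adjusted p = 1.2e-06). TYK2, which pairs with JAK1 at the interferon alpha receptor, fell the least of the kinases. Its values were 5189, 5435 and 5645 in V-K562 and 4354, 4577 and 4594 in B-K562, a log2 difference of -0.27 (SE 0.05, adjusted p = 1.8e-04).

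Among the STATs, STAT2, which joins IRF9 in the interferon-stimulated gene factor, showed the largest fall. Its normalized counts were 3003, 3238 and 3369 in V-K562 and 2066, 2240 and 2228 in B-K562, a log2 difference of -0.56 (SE 0.06, adjusted p = 6.6e-07). STAT3, the main factor downstream of interleukin-6, was at 9531, 9723 and 9417 in V-K562 and 7524, 7550 and 7935 in B-K562 (log2 difference -0.32, SE 0.04, adjusted p = 1.7e-05). STAT6, which answers interleukin-4 and interleukin-13, was at 2282, 2173 and 2138 in V-K562. In B-K562 it was at 1668, 1627 and 1754 (log2 difference -0.38, SE 0.05, adjusted p = 1.2e-05). These 3 genes were lower in each B-K562 library than in any V-K562 library.

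The 2 STAT5 genes, neighbours on chromosome 17 that encode closely related proteins, moved in opposite directions. STAT5A rose from 12471, 12763 and 10629 in V-K562 to 18213, 19072 and 18806 in B-K562, which was 1.57-fold (log2 difference 0.65, SE 0.06, adjusted p = 5.2e-07). STAT5B fell from 10599, 11766 and 11636 to 8082, 8356 and 8404 (log2 difference -0.45, SE 0.05, adjusted p = 1.9e-06). The ratio of STAT5A to STAT5B per kb was 1.40, 1.29 and 1.09 in the V-K562 libraries and 2.68, 2.71 and 2.66 in the B-K562 libraries, with no overlap. In G-K562 it was 1.53, 1.45 and 1.37, which overlapped with V-K562. The genes share long stretches of sequence, and the authors kept only uniquely mapped reads, so how reads from shared stretches were counted bears on both levels and was not tested.

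**Figure D2:**
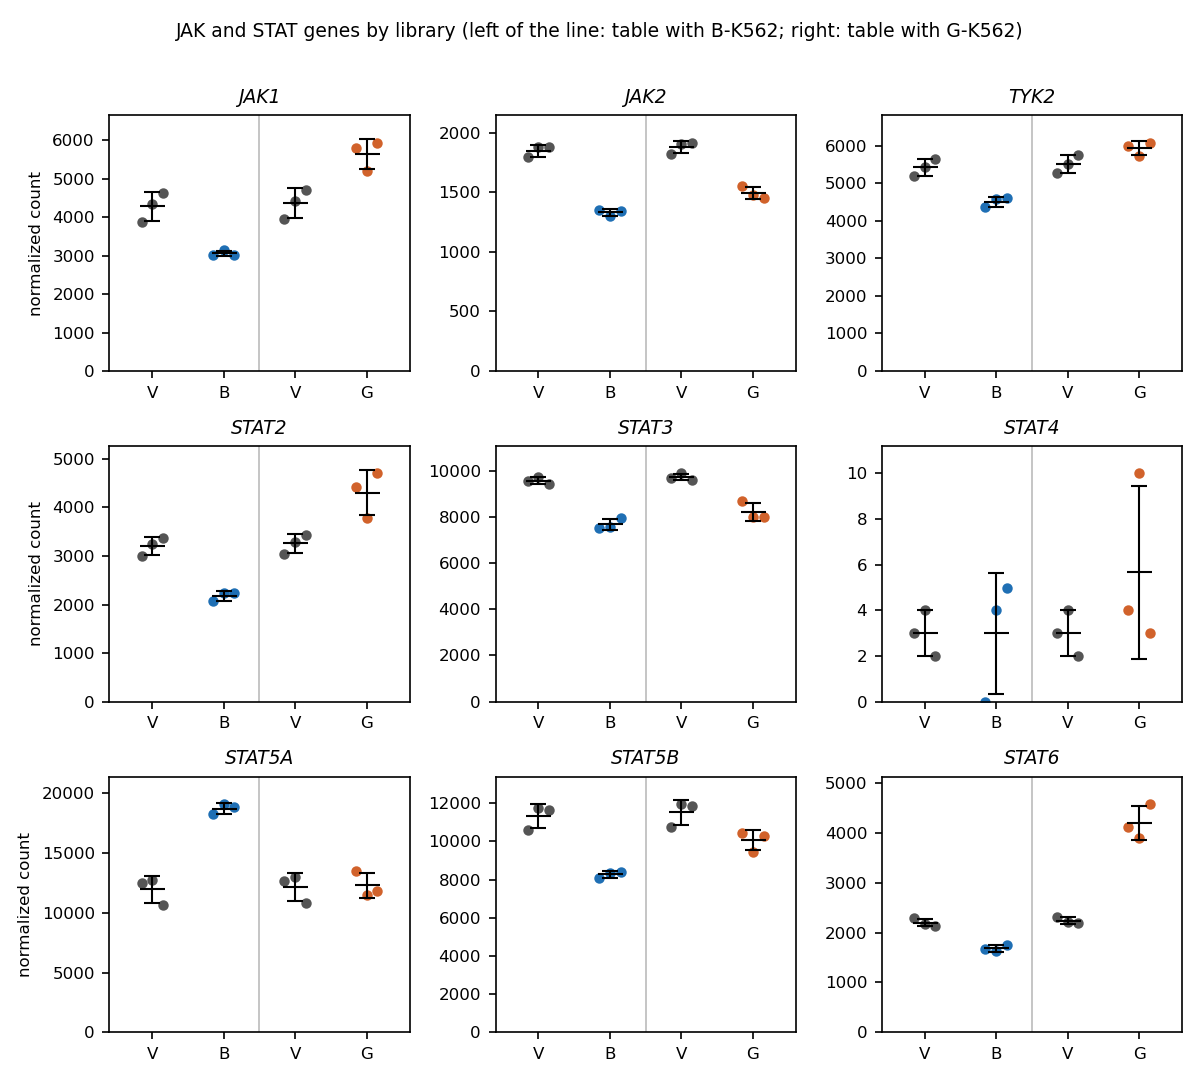
Normalized count of each JAK and STAT gene in each RNA-seq library, from 0, with V-K562 and B-K562 from their table left of the line and V-K562 and G-K562 from theirs right of it, and the mean and SD of 3 libraries in black. The B-K562 points of STAT5A, 18213 to 19072, lie above those of V-K562, while for JAK1, JAK2, TYK2, STAT2, STAT3, STAT5B and STAT6 they lie below.

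The second comparison set G-K562, whose BASP1 cannot be myristoylated, against V-K562. In G-K562, STAT6, STAT2 and JAK1 were higher than in V-K562, while JAK2, STAT3 and STAT5B were lower. TYK2 and STAT5A did not pass the test. Of the 8 tested members 6 passed, 3 lower and 3 higher, against 66.9% of the 15271 genes tested (33.3% lower and 33.5% higher). The median log2 difference was 0.06 over the members and 0.00 over all genes, and no member changed by 2-fold. The V-K562 libraries are those of the first comparison, and their values in the table with G-K562 are about 1.02 times those above. Libraries did not overlap for the 6 genes that passed, as for 70.2% of all genes tested.

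STAT6 had the largest difference. Its normalized counts were 2317, 2206 and 2181 in V-K562 and 4110, 3902 and 4569 in G-K562, 1.87-fold higher (log2 difference 0.91, SE 0.07, adjusted p = 3.6e-07). STAT2 was at 3049, 3287 and 3437 in V-K562 and 4411, 3791 and 4697 in G-K562 (log2 difference 0.40, SE 0.08, adjusted p = 9.9e-04). JAK1 was at 3938, 4412 and 4712 in V-K562 and 5790, 5197 and 5930 in G-K562 (log2 difference 0.37, SE 0.08, adjusted p = 9.7e-04). For these 3 genes each G-K562 library was above each V-K562 library.

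JAK2, STAT3 and STAT5B were lower, again without overlap. JAK2 fell from 1821, 1905 and 1916 in V-K562 to 1550, 1474 and 1452 in G-K562 (log2 difference -0.33, SE 0.06, adjusted p = 3.9e-04). STAT3 fell from 9677, 9872 and 9608 to 8677, 8002 and 7980 (log2 difference -0.24, SE 0.05, adjusted p = 0.0021). STAT5B fell from 10761, 11946 and 11873 to 10430, 9454 and 10292, by the smallest of the log2 differences that passed, -0.20 (SE 0.06, adjusted p = 0.016). Without V-K562 replicate 2 or replicate 3 this fall did not pass (adjusted p = 0.075 and 0.056).

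TYK2 and STAT5A overlapped between V-K562 and G-K562. TYK2 was at 5268, 5518 and 5760 in V-K562 and 6000, 5711 and 6074 in G-K562, a log2 difference of 0.10 (95% interval -0.02 to 0.23, adjusted p = 0.12). STAT5A was at 12662, 12958 and 10844 in V-K562 and 13476, 11521 and 11859 in G-K562, a log2 difference of 0.02 (95% interval -0.16 to 0.19, adjusted p = 0.87). The difference of STAT5A was -0.06 without V-K562 replicate 3 and -0.05 without G-K562 replicate 1, so its direction rests on single libraries. The summed K562 markers were lower in each G-K562 library than in any V-K562 library, and their part in these differences was not tested.

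The third comparison set the BASP1 lines against each other in a fit of all 9 libraries, with B-K562 put on the scale of the other table. G-K562 was higher than B-K562 for 6 of the 8 tested members and lower for STAT5A, and STAT3 did not pass. Of all 15521 genes tested, 78.5% passed, 38.1% higher in G-K562 and 40.5% lower. The median log2 difference was 0.31 over the members and -0.02 over all genes. Libraries did not overlap for the 7 that passed, as for 81.0% of all genes tested. STAT6 was 2.45-fold higher in G-K562 (log2 difference 1.29, SE 0.06, adjusted p = 9.9e-11) and was the only member past 2-fold, a size that 29.9% of all genes passed. STAT2 was 1.93-fold higher (log2 difference 0.95, SE 0.07, adjusted p = 2.1e-08) and JAK1 1.81-fold (log2 difference 0.86, SE 0.07, adjusted p = 2.3e-08).

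The other kinases and STAT5B differed less. TYK2 was higher in G-K562 by a log2 difference of 0.37 (SE 0.05, adjusted p = 6.6e-06), STAT5B by 0.26 (SE 0.05, adjusted p = 5.7e-04) and JAK2 by 0.14 (SE 0.05, adjusted p = 0.022). The difference of JAK2 did not pass without B-K562 replicate 2 (adjusted p = 0.087) or G-K562 replicate 1 (adjusted p = 0.091). STAT5A was lower in G-K562 by a log2 difference of -0.63 (SE 0.07, adjusted p = 1.3e-06). STAT3 differed by 0.07 (95% interval -0.03 to 0.18, adjusted p = 0.16), with libraries that overlapped. After a further trimmed mean scaling it passed, at 0.13 (adjusted p = 0.018). BASP1 itself was at a 1.48-fold higher level in G-K562 (adjusted p = 0.0019), so the amount and the form of BASP1 cannot be told apart here.

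**Figure D3:**
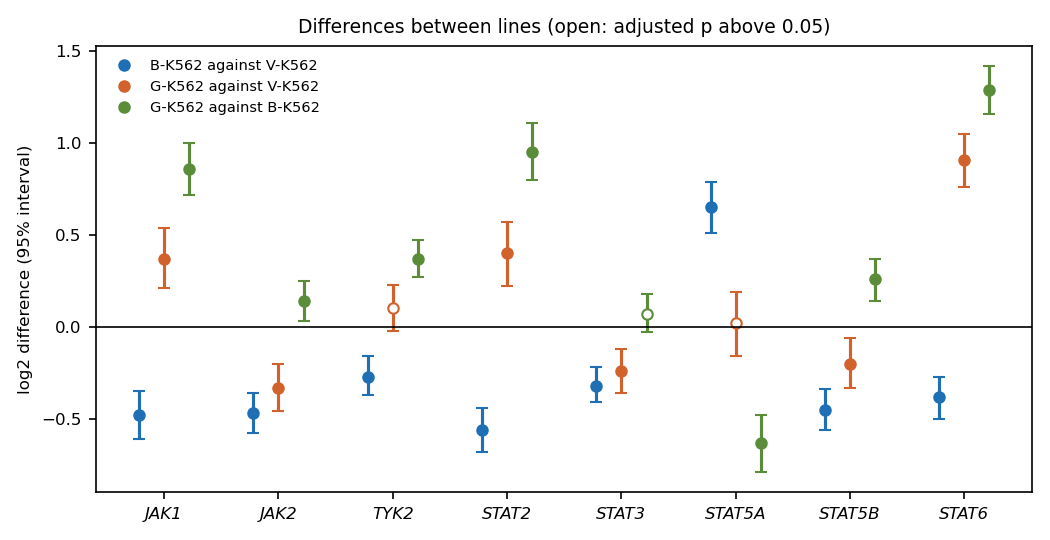
Log2 difference with its 95% interval for the 8 tested JAK and STAT genes in the 3 comparisons, with filled points where the adjusted p was at most 0.05 and open points where it was not. STAT6, STAT2 and JAK1 lie below 0 in B-K562 against V-K562 and above 0 in G-K562 against V-K562, and STAT5A stands alone above 0 in B-K562 against V-K562.

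The genes whose profile over the 9 libraries came closest to each member were found by the root mean square difference of log2(value + 1) less its V-K562 mean, among 15520 genes. The closest was HACL1 for TYK2 (0.018), AFTPH for JAK2 (0.030), C15orf39 for JAK1 (0.036), MTHFD1L for STAT3 (0.042) and TOP2A for STAT5B (0.033). For STAT2 it was JAK1 (0.062), the one case of a member closest to another member. STAT5A was closest to NUP50 (0.063) and STAT6 to SAGE1 (0.073). These are descriptions of likeness over libraries that share 3 lines.

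Receptors stand above the kinases, and 41 of them were listed. In B-K562, 20 of the 27 tested receptor genes were lower than in V-K562 and 6 were higher, with a median log2 difference of -0.73, against 37.2% lower and 38.6% higher among all genes. Of these, 2 of the lower and 1 of the higher met the filter on low values only through the line where they were high. Such a gene or region had to differ, so here and below it is given by its values with no p, although the counts include it. IL20RB, a chain of the receptors for the interleukin-20 family, fell from 1596 ± 141 (SD, n = 3) in V-K562 to 113 ± 9.29 in B-K562, 14.0-fold (adjusted p = 1.0e-12). IL21R, the interleukin-21 receptor, was at 65 to 100 in V-K562 and at 2 to 9 in B-K562. EPOR, the erythropoietin receptor, CSF2RB and IL5RA were among the 6 higher. EPOR was at 684 ± 19.5 in V-K562 and 1336 ± 19.9 in B-K562 (log2 difference 0.96, adjusted p = 2.7e-09). CSF2RB, the beta chain shared by the receptors for GM-CSF, interleukin-3 and interleukin-5, rose from 225 ± 15.4 to 552 ± 20.2 (adjusted p = 6.0e-09). IL5RA, the alpha chain of the interleukin-5 receptor, was at 8 ± 2.65 in V-K562 and 31.7 ± 4.04 in B-K562.

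In G-K562, 7 of 26 receptors tested against V-K562 were lower and 11 higher, with a median log2 difference of -0.01. That is near the background of 33.3% lower and 33.5% higher. CSF2RB was at 22.3 ± 4.93, against 229 ± 14.9 in V-K562 (log2 difference -3.32, adjusted p = 2.5e-08), and IL7R, the interleukin-7 receptor, at 12 ± 1.73 against 39.3 ± 5.69 (adjusted p = 8.4e-05). IL13RA1, a chain of the interleukin-13 receptor that signals through STAT6, rose 4.13-fold to 3882 ± 360 (adjusted p = 1.7e-08), and IL27RA rose 2.47-fold to 2026 ± 73.0 (adjusted p = 2.2e-08). EPOR was at 640 ± 23.1 against 696 ± 17.6 and did not pass (log2 difference -0.12, 95% interval -0.27 to 0.03, adjusted p = 0.15). Set against B-K562 in the 9-library fit, 22 of 27 receptors were higher in G-K562 and 5 lower, with a median log2 difference of 1, against 38.1% higher and 40.5% lower among all genes. CSF2RB and EPOR were among the lower, at log2 differences of -4.61 and -1.09, as was IL5RA, which met the filter only through B-K562. IL21R and IL20RB were among the higher, at 4.44 and 4.41.

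Most of the 32 listed ligands were too low to test. In B-K562, 6 of 9 tested were lower than in V-K562 and none higher, against 37.2% and 38.6% of all genes, and 1 of the 6, IL7, met the filter only through V-K562. IL23A, a subunit of interleukin-23, fell from 973 ± 39.6 to 117 ± 14.2 (adjusted p = 1.3e-11). IL7 was at 16 to 25 in V-K562 and at 0 to 1 in both B-K562 and G-K562, so no fold is given. In G-K562, 4 of 13 tested ligands were lower than in V-K562 and 6 higher, against 33.3% and 33.5% of all genes. Of the 6 higher, 4 met the filter only through G-K562, CSF2 and IL10 among them, as did 1 of the lower, IL7, through V-K562. CSF2, which encodes GM-CSF, was at 190 to 270 in G-K562 and at most 5 in any V-K562 library, and IL10 was at 75 to 116 in G-K562 and at most 6 in V-K562. LIF fell from 39.7 ± 12.1 to 18.3 ± 6.51 (adjusted p = 0.0085). Against B-K562, 10 of 13 ligands were higher in G-K562 and none lower, against 38.1% and 40.5% of all genes, and 4 of the 10 met the filter only through G-K562. The median log2 differences of the tested ligands were -0.95, 0.27 and 1.70 in the 3 comparisons in this order.

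The 20 inhibitors, which include the SOCS proteins, phosphatases and PIAS proteins, passed at shares near or below the background. In B-K562, 9 were lower and 5 higher than in V-K562 (median -0.08), in G-K562 6 were lower and 7 higher (median -0.02), and against B-K562 6 were lower and 9 higher in G-K562 (median 0.04), so that 14, 13 and 15 of 20 passed against 75.8%, 66.9% and 78.5% of all genes. PTPRC, the phosphatase CD45, fell from 2472 ± 37.6 in V-K562 to 82.7 ± 2.52 in B-K562, 29.6-fold (adjusted p = 1.5e-14), and from 2515 ± 31.0 to 339 ± 27.8 in G-K562 (adjusted p = 1.3e-10). CISH and SOCS2, feedback inhibitors that STAT5 switches on, were lower in B-K562 and higher in G-K562. CISH was at 1753 ± 168 in V-K562 and 760 ± 35.2 in B-K562 (adjusted p = 3.3e-09), and at 2388 ± 140 in G-K562 (adjusted p = 5.0e-04). SOCS2 was at 3095 ± 251 in V-K562 and 2568 ± 89.0 in B-K562 (adjusted p = 9.8e-04), and at 7278 ± 453 in G-K562, 2.31-fold above V-K562 (adjusted p = 6.3e-08).

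SOCS1, an inhibitor of the JAK kinases themselves, was at 129 ± 17.1 in V-K562 and 48.7 ± 10.5 in B-K562 (adjusted p = 5.9e-06), and at 201 ± 5.69 in G-K562 (adjusted p = 9.3e-04). PTPN6, the phosphatase SHP-1, was at 157 ± 3.79 in V-K562 and 109 ± 7.77 in B-K562 (adjusted p = 7.4e-04), and rose 2.23-fold in G-K562 to 359 ± 39.8 (adjusted p = 2.0e-06). PTPN1, the phosphatase PTP1B that acts on JAK2 and TYK2, went the other way. It rose from 4690 ± 205 to 6255 ± 68.0 in B-K562 (adjusted p = 2.0e-06) and fell from 4770 ± 211 to 3866 ± 64.8 in G-K562 (adjusted p = 4.8e-04). USP18, a brake on interferon receptors, fell in both lines, most in G-K562, from 132 ± 8.19 to 14.0 ± 2.65 (adjusted p = 8.0e-08). SOCS4 rose in both, to 936 ± 18.2 in B-K562 (adjusted p = 1.3e-05) and 1270 ± 109 in G-K562 (adjusted p = 2.1e-06).

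Of the 13 partners and cofactors, 2 were lower and 7 higher in B-K562 than in V-K562 (median 0.13), and 3 were lower and 8 higher in G-K562 (median 0.31). Against B-K562, 4 were lower and 5 higher in G-K562 (median -0.05). Those that passed, 9, 11 and 9 of 13 in this order, stand against 75.8%, 66.9% and 78.5% of all genes. IRF9, which binds STAT2, fell with it in B-K562, from 344 ± 15.2 to 226 ± 16.4 (log2 difference -0.60, adjusted p = 2.6e-05). In G-K562 it was at 336 ± 55.6 against 350 ± 16.1 in V-K562 and did not pass (95% interval of the log2 difference -0.32 to 0.18, adjusted p = 0.62). The coactivators EP300 and NCOA1 rose in B-K562 by log2 differences of 0.56 and 0.55 (adjusted p = 2.0e-07 and 2.6e-07), and CREBBP rose in G-K562 by 0.55 (adjusted p = 1.1e-04). GAB2, an adaptor of BCR-ABL1, fell from 7800 ± 596 to 2116 ± 65.4 in B-K562, 3.68-fold (adjusted p = 9.5e-12), and rose in G-K562 to 9815 ± 759 (adjusted p = 0.0030). STAM, an endosomal adaptor, fell 2.30-fold in G-K562 to 866 ± 41.4 (adjusted p = 3.0e-08), and SH2B2, an adaptor that binds JAK2, was at 12.3 ± 2.08 against 21.7 ± 4.51 (adjusted p = 0.029). The fall of SH2B2 did not pass without V-K562 replicate 2, V-K562 replicate 3 or G-K562 replicate 2 (adjusted p = 0.076 to 0.10).

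In cells with BCR-ABL1, STAT proteins are also phosphorylated by that fusion and by SRC-family kinases, and 8 genes of this group, the adaptor CRKL among them, were listed. In B-K562, 1 was lower and 4 higher of 7 tested (median 0.27). In G-K562, 1 was lower and 3 higher of 7 (median 0.12), and against B-K562, 4 of 8 were lower in G-K562 and 1 higher (median -0.12). The 5, 4 and 5 that passed stand against the same 75.8%, 66.9% and 78.5%, near or below the background. BCR and ABL1, whose counts include the fusion transcript, rose in B-K562 to 5426 ± 95.7 and 10468 ± 170 (adjusted p = 2.6e-06 and 0.0023), and FYN rose to 2779 ± 14.2 (adjusted p = 3.5e-06). SRC fell in B-K562, from 659 ± 39.7 to 553 ± 29.1 (adjusted p = 0.0052), and rose in G-K562 to 925 ± 85.9 (adjusted p = 4.9e-04). ABL1 was higher in G-K562 by a log2 difference of 0.27 (adjusted p = 0.019), which did not pass once V-K562 replicate 1, G-K562 replicate 1 or G-K562 replicate 3 was left out (adjusted p = 0.073 to 0.080). CRKL, the main adaptor substrate of the fusion, fell from 24925 ± 3017 in V-K562 to 14662 ± 1211 in G-K562 (adjusted p = 1.8e-05).

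The last list holds 20 genes known to be targets of STAT5 or STAT3. In B-K562, 12 of 19 tested were lower and 4 higher than in V-K562 (median -0.23), and in G-K562, 3 were lower and 12 higher (median 0.43). Against B-K562, 15 were higher in G-K562 and 3 lower (median 0.72). Among all genes 37.2% were lower and 38.6% higher in B-K562, 33.3% and 33.5% in G-K562, and 40.5% and 38.1% between the BASP1 lines. PIM1, a kinase gene that STAT5 activates, was at 26003 ± 2400 in V-K562 and 7946 ± 451 in B-K562, 3.27-fold lower (adjusted p = 8.0e-11), while STAT5A was higher and STAT5B lower in B-K562. BCL6, which STAT5 is known to repress, fell 6.16-fold to 207 ± 22.0 (adjusted p = 7.9e-10), and CDKN1A, the cell cycle inhibitor p21, 5.10-fold to 512 ± 19.7 (adjusted p = 7.0e-12). FOS and TFRC, the transferrin receptor, rose in B-K562 by log2 differences of 0.93 and 0.90 (adjusted p = 1.1e-06 and 4.2e-09). CEBPD fell in both lines, to 58.7 ± 2.08 in B-K562 and 77.0 ± 15.6 in G-K562 (adjusted p = 3.7e-07 and 1.8e-04).

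In G-K562, BCL2 was at 69.3 ± 6.81 against 12.3 ± 3.21 in V-K562 (log2 difference 2.42, adjusted p = 2.7e-06), and BCL2L1, which encodes the survival protein BCL-XL, rose 1.47-fold to 9189 ± 410 (adjusted p = 4.8e-06). FOS was higher in G-K562, at 959 to 3993 against 535 to 641 in V-K562, with an SD of 1607 around a mean of 2170 (adjusted p = 0.0020 against V-K562 and 0.066 against B-K562). MYC fell 2.80-fold in G-K562, from 5968 ± 451 to 2128 ± 44 (adjusted p = 5.7e-09). PIM1 was lower by a log2 difference of -0.30 (adjusted p = 0.0069). These genes have many other regulators, and the lists were described by counts with no set test.

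**Figure D4:**
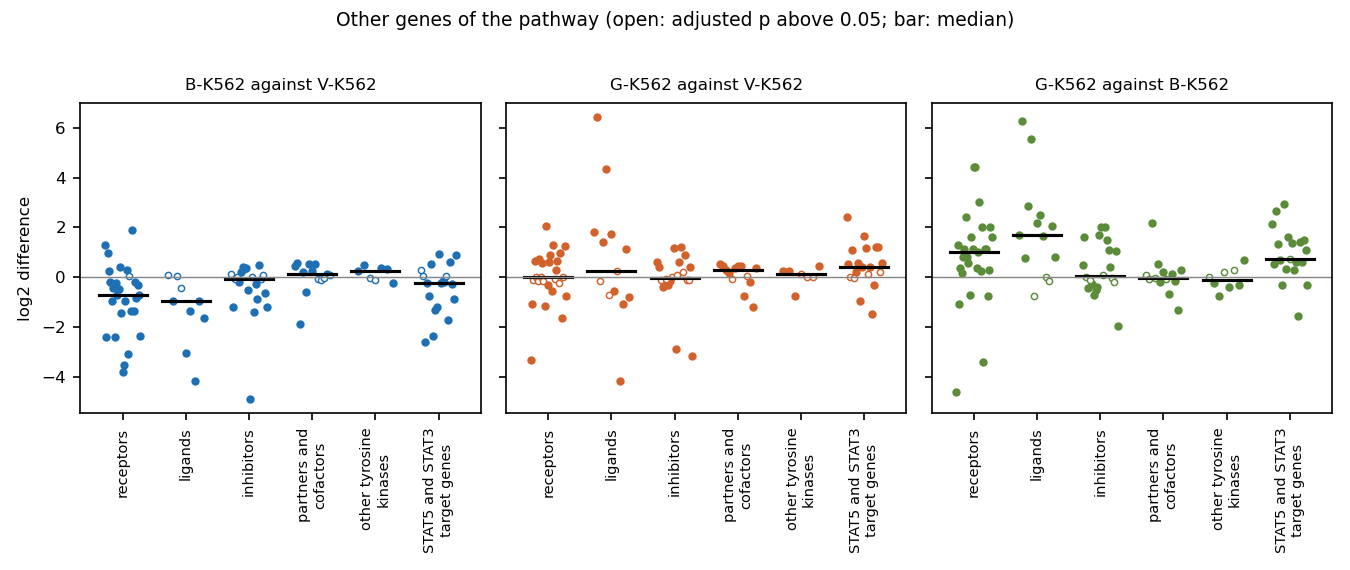
Log2 difference of each tested gene in 6 lists of the pathway, in the 3 comparisons, with filled points at an adjusted p of at most 0.05 and the list's median as a bar. Receptor medians lie at -0.73 in B-K562 against V-K562, at -0.01 in G-K562 against V-K562 and at 1 in G-K562 against B-K562.

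ATAC-seq measures how open chromatin is, here as the tags at a peak's summit. The tags printed below are unscaled, while the log2 differences are of values scaled by a trimmed mean. Against V-K562 the scaling lowered these differences, for JAK1 region 11 in G-K562 from -0.06 to -0.42. Falls from V-K562 are therefore larger, and rises smaller, than the printed tags show. Of the 51 regions, 14 lay within 500 bp of a transcript start of a member and 37 elsewhere in or beside the genes, and STAT3 and STAT5A shared 2. In B-K562, 31 regions could be tested, of which 6 were less and 3 more accessible than in V-K562. That is close to the background, in which 25.2% of 52204 regions passed, 16.6% lower and 8.57% higher. By at least 2-fold, 3 of the 31 were lower and none higher, against 8.35% of all regions in either direction. In G-K562, 36 could be tested, with 3 lower and 8 higher, against 42.0% of 54213 regions (26.0% lower and 15.9% higher). Between G-K562 and B-K562, 39 were tested, with 4 lower and 6 higher in G-K562, against 27.9% of 60181 regions (15.6% lower and 12.3% higher).

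The count in G-K562 fell to 7 of 36 with a floor of 30 tags and to 7 with scaling within bins of GC content. A library without a called peak was set to 17 tags in the fit, so a log2 difference that involves one is neither a measurement nor a bound. For such regions neither that difference nor its p is given, although the counts include them. Of the regions that passed, 2 of 9 in B-K562, 3 of 11 in G-K562 and 2 of 10 between the BASP1 lines met the filter only through the line where they were high, and no p is given for these.

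JAK1 had the most regions, 11. Its region 3 (chr1:64956217-64956607), in an intron, had 49, 47 and 52 tags in V-K562 and 58, 49 and 88 in G-K562, and no peak in any B-K562 library. Its B-K562 values in the fit were all set to the floor, so no p is given. Its summit window, shown above, held the interferon-response element core GAAATGGAAA. Region 6 (chr1:64917315-64917787), also intronic, had 44, 42 and 54 tags in V-K562 and 53, 49 and 46 in G-K562. In B-K562 it had no peak in 1 library and 17 and 24 tags in the others. The intronic region 8 had 132, 100 and 116 tags in V-K562 and 65, 76 and 89 in B-K562 (log2 difference -0.75, adjusted p = 0.015). This fall of region 8 did not pass with scaling within GC bins (-0.44, adjusted p = 0.10) or with a floor of 30 tags (adjusted p = 0.067). The intronic region 10 had 32, 18 and 23 tags in V-K562 and no peak in G-K562. Region 11, also intronic, had 234, 247 and 241 tags in V-K562 and 249, 212 and 231 in G-K562, values that overlap, and its log2 difference of -0.42 (adjusted p = 0.0040) was -0.06 without scaling and -0.03 with scaling within GC bins.

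The main start regions of the 3 kinase genes were higher in G-K562 relative to V-K562, and that of TYK2 also in B-K562. TYK2 region 1 had 159, 189 and 165 tags in V-K562, 284, 264 and 245 in B-K562 and 284, 280 and 304 in G-K562 (log2 differences 0.48 and 0.41, adjusted p = 0.0081 and 0.0064), with no overlap with V-K562. In B-K562 this went with a lower TYK2 RNA. JAK1 region 1 had 60, 93 and 92 tags in V-K562 and 131, 164 and 176 in G-K562 (log2 difference 0.61, adjusted p = 0.039), and JAK2 region 1 had 116, 90 and 102 in V-K562 and 174, 171 and 179 in G-K562 (log2 difference 0.42, adjusted p = 0.025). STAT2 region 1 had 335, 303 and 307 in V-K562 and 489, 493 and 518 in G-K562 (log2 difference 0.32, adjusted p = 0.0097). With STAT5A region 1, which met the filter only through G-K562, 5 of the 12 tested start regions were higher in G-K562 and none was lower. That is near the background, since of all 13015 regions tested within 500 bp of a protein-coding transcript start, 36.7% were higher in G-K562 and 6.16% lower.

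With scaling within GC bins, the start regions of JAK1, JAK2, TYK2 and STAT2 were no longer past the threshold in G-K562, at log2 differences of 0.19, 0.06, 0.18 and 0.18 (adjusted p = 0.36, 0.77, 0.12 and 0.090). These regions hold 60.5% to 73.7% G and C. Those of JAK1 and JAK2 were also lost when some single libraries were left out (adjusted p up to 0.085 and 0.062). Between G-K562 and B-K562 none of the 13 start regions tested passed, against 22.0% of such regions in the series.

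Past the gene ends, 2 regions were lower in B-K562, as was the RNA of their gene. TYK2 region 3 (chr19:10346524-10346929), downstream of TYK2, had 40, 38 and 41 tags in V-K562, 26, 18 and 21 in B-K562 and 73, 50 and 54 in G-K562. It was lower in B-K562 than in V-K562 (log2 difference -1.04, adjusted p = 0.010) and than in G-K562 (1.22 for G-K562 against B-K562, adjusted p = 0.0019). STAT2 region 2 (chr12:56336606-56337060), downstream of STAT2, had 134, 115 and 109 tags in V-K562, 66, 74 and 61 in B-K562 and 143, 166 and 145 in G-K562. B-K562 was below the other lines in each library (log2 difference from V-K562 -0.98, adjusted p = 0.0031, and 0.96 for G-K562 against B-K562, adjusted p = 4.2e-04).

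At the STAT3 and STAT5A pair, which lie end to end on chromosome 17, STAT3 region 7 (chr17:42312248-42313286) lies past the end of both genes. It had 126, 133 and 108 tags in V-K562, 261, 247 and 205 in B-K562 and 161, 172 and 174 in G-K562. It was higher in B-K562 than in V-K562 (log2 difference 0.80, adjusted p = 0.0036) and than in G-K562 (-0.70 for G-K562 against B-K562, adjusted p = 0.0011), as was the RNA of STAT5A, while the RNA of STAT3 was lower in B-K562 than in V-K562. STAT3 region 6, intronic, had 133, 153 and 123 tags in V-K562, 175, 170 and 148 in B-K562 and 124, 85 and 84 in G-K562. G-K562 was lower than V-K562 (log2 difference -0.85, adjusted p = 0.0062) and than B-K562 (-0.99, adjusted p = 0.0012), although its highest library overlapped the lowest of V-K562. STAT3 region 2, intronic, had 30, 34 and 26 tags in B-K562 and 17 tags in 1 G-K562 library with no peak in the others. STAT5A region 1, at the downstream STAT5A promoter shown above and also at an annotated start of STAT5B, had no peak in V-K562, peaks of 47 and 41 tags in 2 B-K562 libraries, and 51, 57 and 84 tags in G-K562.

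STAT5B had 9 regions. Of the 5 tested in G-K562 against V-K562, 1 passed, region 9 beyond its end, which overlaps the start of GHDC. That region had 55, 59 and 51 tags in V-K562 and 110, 88 and 91 in G-K562 (log2 difference 0.45, adjusted p = 0.033), and the change did not pass once any one of 5 of the 6 libraries was left out (adjusted p = 0.053 to 0.10). STAT4 had 6 regions of at most 27 tags each, and none of those tested passed.

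STAT6, the member with the largest RNA difference between the BASP1 lines, had 7 regions. Region 1 (chr12:57112185-57112653), upstream of the gene, had 59, 93 and 72 tags in V-K562, 93, 80 and 89 in B-K562 and 136, 132 and 166 in G-K562, above both other lines in each library. Its log2 difference was 0.62 against V-K562 (adjusted p = 0.023) and 0.51 against B-K562 (adjusted p = 0.036), and both were lost when some single libraries were left out (adjusted p up to 0.061 and 0.12). Region 5, intronic, had 44, 39 and 31 tags in V-K562, 65, 62 and 83 in B-K562 and 40, 39 and 27 in G-K562. It was higher in B-K562, opposite to the RNA (log2 difference 0.73 from V-K562, adjusted p = 0.036, and -1.21 for G-K562 against B-K562, adjusted p = 0.0035), and its rise in B-K562 did not pass once any one of 5 libraries was left out (adjusted p = 0.061 to 0.12). Region 2, at a start, had 70, 87 and 64 tags in V-K562 and 47, 62 and 54 in B-K562 (log2 difference -0.59, adjusted p = 0.044), which did not pass once any one of the 6 libraries was left out (adjusted p = 0.055 to 0.14).

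**Figure D5:**
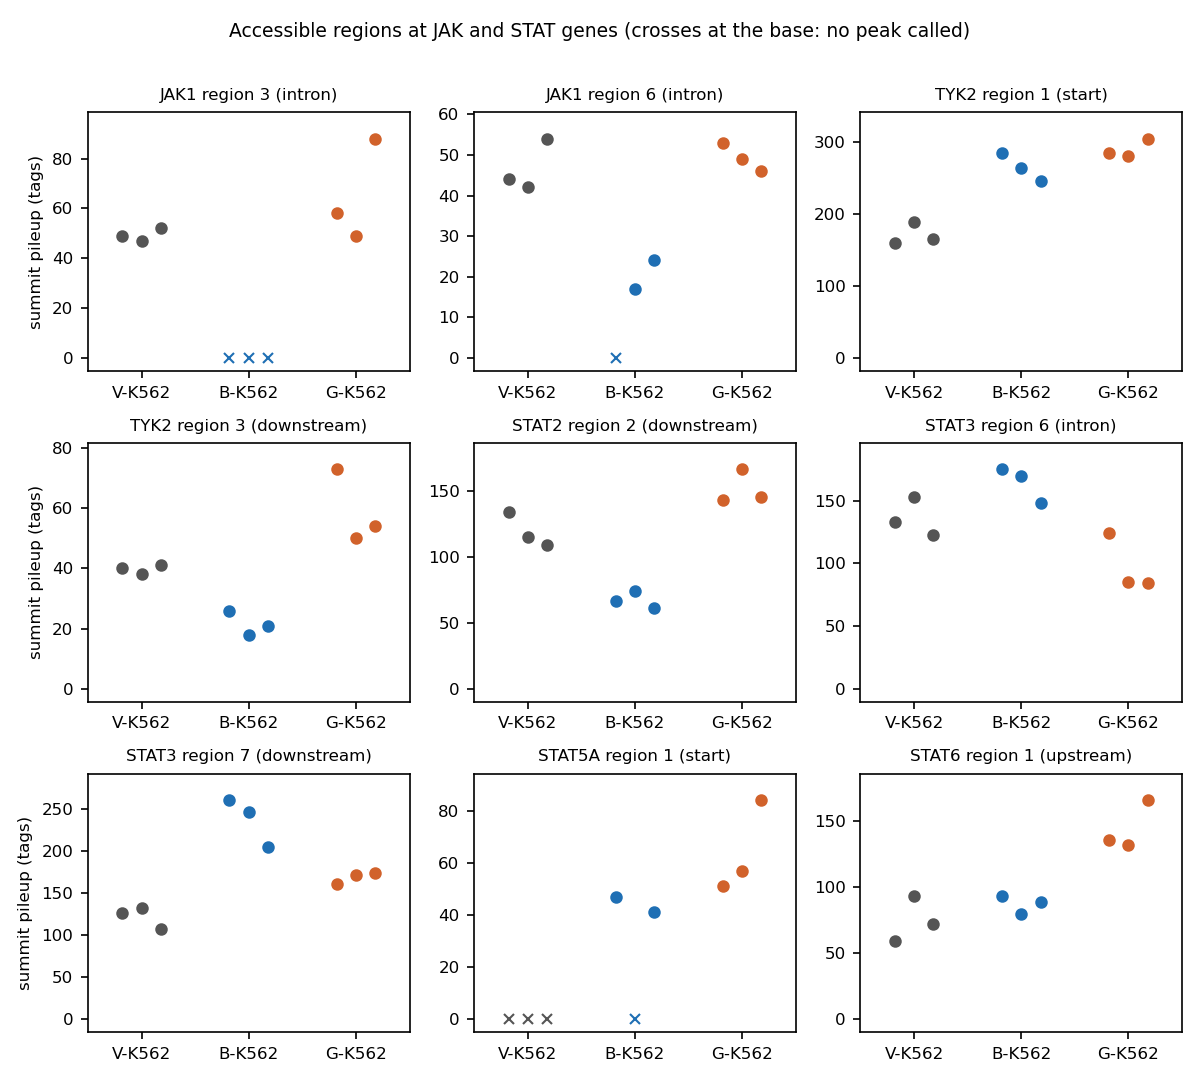
Summit pileup in tags, from 0, of 9 regions at JAK and STAT genes in each ATAC-seq library, with crosses at the base where no peak was called. JAK1 region 3 had no peak in B-K562, STAT6 region 1 had 132 to 166 tags in G-K562 and at most 93 in the other lines, and STAT3 region 7 was highest in B-K562.

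The promoters and regions were searched on both strands for the letters of STAT sites and of the interferon-stimulated response element. The letters TTC and GAA with 3 bases between them, the site of most STAT pairs, were in none of the members' 17 RefSeq promoters, against 7.66% of all 35116 promoters. With 4 bases between them, the spacing that STAT6 prefers, they were in 1, the upstream STAT5A promoter (6.44% of all). The response element core, GAAA and GAAA with 2 bases between them, was in none (3.57% of all). Of the 51 summit windows of 300 bp, 6 held the first, 2 held the second and 1 held the third, against 8.70%, 6.02% and 3.45% of all regions. These matches are letters in a window and not binding sites. A further RefSeq promoter of JAK1 lies more than 5 kb beyond the gene as the RNA-seq tables define it, and its accessibility was not included.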

How the data were processed

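RNA-seq reads had been aligned by the authors to GRCh38 (STAR), with duplicates and reads of more than 2 mismatches discarded and only unique matches retained, and Subread gave a count per RefSeq gene. The RNA-seq values deposited by the authors are a signal, each count over its library's DESeq2 size factor, rounded, in 1 table per BASP1 line that also holds the V-K562 libraries. Whether counting used strand is not given in the sources used here. Their totals, 32074895 to 33229588 per library, do not show depth. The columns of fold changes and p-values hold the authors' own comparisons and were not used. For ATAC-seq, the authors called peaks per library with MACS2 after sampling libraries to equal numbers of tags. Levels per kb use the deposited exon length.

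Genes at 10 or more in at least 3 libraries were tested with limma-trend (limma 3.58.1, R 4.3.3) on log2(value + 1), with Benjamini-Hochberg adjustment over all genes. B-K562 and G-K562 were set against V-K562 within the table that holds both. To set G-K562 against B-K562, the B-K562 columns were brought to the other scale by a factor of 1.02, the mean ratio of the shared V-K562 columns. ATAC-seq peaks were merged, a region's value was its highest summit pileup, scaled by a trimmed mean with a floor of 17 tags, and regions with a peak in at least 3 libraries were tested likewise. A difference passed at an adjusted p of at most 0.05, and p-values measure the spread between cultures. Promoters came from RefSeq (GRCh38.p14), which gave 17 for the 9 genes, and windows from GRCh38, and transcript starts from GENCODE 44. The tests were checked on simulated data. Other steps used Python 3.11.15.

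The members, lists and alternatives were chosen with earlier results of these data known. Genes named from the lists are up to 2 largest rises and 2 largest falls per comparison among those that passed with a mean of at least 10, and EPOR, CISH, SOCS2, PIM1, BCL2L1 and IRF9 whatever their values. Alternatives were other filters, pseudocount, scaling and tag floors, a replicate block, a joint fit and leaving out each library. The values and sequence of 1 region counted with the members are not reported here.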

Additional observations from a re-analysis of the deposited data

Results flagged for a closer look

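Of the 47 JAK, STAT and named pathway genes tested in all 3 comparisons, 15 (31.9%) moved in opposite directions in the BASP1 lines. Each passed the threshold in B-K562 and in G-K562 relative to V-K562. The difference between the BASP1 lines also passed in the 9-library fit (limma, adjusted over all genes). Among all 14754 genes so tested, 22.3% met the same rule. The named genes were picked for the largest changes, so the count says nothing of the pathway. Both directions are measured against the same V-K562 libraries. The difference between the BASP1 lines comes from the same libraries and is close to the gap between the directions, so its test adds no separate support. The members were JAK1 (log2 differences of -0.48 in B-K562 and 0.37 in G-K562, and 0.86 between G-K562 and B-K562), STAT2 (-0.56 and 0.40, and 0.95 between the lines) and STAT6 (-0.38 and 0.91, and 1.29 between the lines).

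Receptors among them were IL20RB (-3.81 and 0.60, and 4.41 between the lines), IL21R (-3.54 and 0.90, and 4.44) and CSF2RB, which went the opposite way (1.29 and -3.32, and -4.61). In B-K562 against V-K562, IL21R met the filter only through V-K562. Among the inhibitors, CISH (-1.20 and 0.42, and 1.63), SOCS1 (-1.40 and 0.62, and 2.02), SOCS2 (-0.27 and 1.21, and 1.48) and PTPN6 (-0.52 and 1.16, and 1.68) were lower in B-K562 and higher in G-K562, and PTPN1 (0.42 and -0.30, and -0.72) was higher in B-K562 and lower in G-K562. The adaptor GAB2 (-1.88 and 0.31, and 2.19), the kinase SRC (-0.25 and 0.46, and 0.71) and the target CDKN1A (-2.35 and 0.59, and 2.94) were lower in B-K562 and higher in G-K562. STAM (0.13 and -1.20, and -1.33) was higher in B-K562 and lower in G-K562. BASP1 had a 1.48-fold higher level in G-K562 than B-K562, and the K562 markers were lower in G-K562, and the part of either in these differences was not tested.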

How the results depend on the processing

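The members that passed numbered 8 in B-K562 under all 12 alternatives, 5 to 6 in G-K562 and 6 to 8 between the BASP1 lines. Accessible regions that passed numbered 7 to 12 in B-K562 and 7 to 13 between the BASP1 lines. In G-K562 they numbered 11, but 7 with a floor of 30 tags, 7 with scaling within bins of GC content, and 5 to 9 with 1 library left out, fewest without G-K562 replicate 3, and 7 without V-K562 replicate 1, V-K562 replicate 3 or G-K562 replicate 2. Part of this fall was set by the filter, because a region with peaks only in the 3 libraries of 1 line needs all of them. STAT5A region 1 was not tested once any G-K562 library was left out, nor JAK1 region 10 once any V-K562 library was. The cause of the rest was not tested. Log2 differences that reversed were all of values that did not pass: BCL2L1 in B-K562 (-0.01 with further trimmed mean scaling), STAT5A in G-K562 (-0.06 without V-K562 replicate 3, -0.05 without G-K562 replicate 1, up to 0.06 without V-K562 replicate 2) and IRF9 in G-K562 (-0.20 to 0.01 with 1 library left out, the highest without G-K562 replicate 1).

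Replicate numbers are shared between the lines, and the labels give no other link between samples. Same-numbered V-K562 and B-K562 RNA-seq libraries deviated together with r = 0.07, 0.041 and 0.001, and V-K562 and G-K562 libraries with r = -0.097, -0.059 and 0.145. In ATAC-seq r was 0.103, 0.024 and 0.031 for V-K562 and B-K562, and 0.074, 0.042 and 0.024 for V-K562 and G-K562. Each V-K562 ATAC-seq library correlated best with the G-K562 library of its own number. With the replicate block, 8, 6 and 7 members passed in the 3 comparisons, as without it, and 8, 11 and 9 regions against 9, 11 and 10. Not every RNA-seq sample correlated best with its own number. The values of STAT4 and of its regions were too low for a change to be detected. The part of depth in this was not tested.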

Other observations

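The epithelial keratin gene KRT5 had a normalized count of 143 in V-K562 replicate 1 and 0 in the other V-K562 and all B-K562 libraries. Leaving out that library changed no call of a JAK or STAT gene in B-K562 against V-K562. This gene was singled out after its values were seen.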
